A study of Homo sapiens with 18 samples.

Results

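The 47 genes described here belong to the mesenchymal state of neuroblastoma, to the programme of epithelial-mesenchymal transition, to the AP-1 family and to YAP signalling, with collagens and integrins left out. They were found by gene symbol among the 39368 rows of each of 2 count tables, and all 47 had a row in both. RNA was sequenced from BE2C and Kelly, human neuroblastoma lines that are long established and have extra copies of MYCN, and BE2C is a clonal subline. In each line, 3 libraries carried the control vector pLKO-GFP, 3 carried the hairpin shAhR-1 and 3 carried shAhR-2, both hairpins being directed against AHR, the gene of the aryl hydrocarbon receptor. The labels name the lentiviral vector pLKO for the controls and no vector for the hairpins, and they give no time after infection. Whether the 3 libraries of a group were separate cultures is not stated, and p-values then reflect only how libraries vary, which may be technical.

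The targeted gene had few counts. In BE2C, AHR counts were 4, 4 and 6 with the vector, 8, 0 and 0 with shAhR-1, and 0 in each shAhR-2 library. In Kelly they were 4, 26 and 29 with the vector, 18, 11 and 22 where the label says shAhR-1, and 0, 4 and 0 with shAhR-2. AHR was lower in the Kelly shAhR-2 libraries (log2 fold change -3.84 ± 0.81 SE, edgeR adjusted p = 3.41e-05). The Kelly libraries labelled shAhR-1 showed no called change of AHR (-0.10 ± 0.54, adjusted p = 0.889), so directions given for them compare those libraries with the vector, whatever their AHR level. In BE2C, AHR did not pass the filter on low counts and was not tested.

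Neuroblastoma cells can hold an adrenergic identity, kept by regulators such as HAND2 and GATA3, or a mesenchymal one, in which PRRX1, FN1, VIM and matrix genes are typically high and cells resemble neural crest or fibroblastic cells. Transcription factors of the SNAI, ZEB and TWIST families repress epithelial genes during the epithelial-mesenchymal transition. YAP1 and its paralogue WWTR1 (TAZ) are coactivators without DNA-binding domains of their own. They act through TEAD factors on targets such as CCN1 and CCN2, and the kinases of the Hippo pathway hold them in the cytoplasm.

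Promoters from RefSeq (GRCh38.p14) were found for 34 of the 47 genes, 48 promoters in all. Each was searched from 250 bases before to 50 bases after the start, on both strands, and the same was done for all 35097 promoters of the table. The TEAD motif GGAATG was in 9 of the 48 promoters, 18.8%, and in 14.0% of all promoters. The AP-1 motif TGANTCA was in 7, 14.6%, against 7.71% of all. The E-box CAGGTG, a sequence that ZEB and SNAI factors bind, was in 4, 8.33%, against 20.6% of all. GCGTG, the core of the element bound by the AhR and ARNT dimer, was in 18, 37.5%, against 36.5% of all. Motifs were counted separately, so matches of different motifs may overlap. A match of letters is not a bound site.

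The 250 bases before the start are shown for 4 of these genes: CCN2 as the textbook YAP target, SPARC and FBN1 because their transcripts differed widely between the groups and hold a TEAD match, and S100A11 because the line Kelly had no counts for it. All 4 lie on the minus strand and are written 5′ to 3′ along it, with motif matches on either strand in capitals. CCN2 (chr6:131951373-131951622) holds GGAATG at 3 places, SPARC (chr5:151686916-151687165) holds its reverse complement near the start, FBN1 (chr15:48644971-48645220) holds the reverse complement of GCGTG and then GGAATG, and S100A11 (chr1:152037005-152037254) holds GCGTG.
CCN2: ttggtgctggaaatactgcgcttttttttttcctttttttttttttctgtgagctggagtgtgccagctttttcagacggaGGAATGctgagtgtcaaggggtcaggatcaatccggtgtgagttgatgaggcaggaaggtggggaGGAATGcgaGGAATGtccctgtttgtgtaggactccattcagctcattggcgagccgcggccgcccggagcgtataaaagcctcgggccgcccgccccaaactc
SPARC: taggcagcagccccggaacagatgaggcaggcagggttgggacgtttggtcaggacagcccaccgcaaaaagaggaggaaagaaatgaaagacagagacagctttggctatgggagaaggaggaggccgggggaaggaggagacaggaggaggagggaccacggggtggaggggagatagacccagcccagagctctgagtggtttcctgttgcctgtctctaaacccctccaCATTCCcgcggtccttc
FBN1: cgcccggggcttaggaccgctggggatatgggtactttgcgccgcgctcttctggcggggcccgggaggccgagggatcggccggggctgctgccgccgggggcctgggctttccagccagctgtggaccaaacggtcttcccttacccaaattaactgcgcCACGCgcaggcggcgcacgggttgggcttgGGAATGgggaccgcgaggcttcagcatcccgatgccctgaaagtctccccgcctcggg
S100A11: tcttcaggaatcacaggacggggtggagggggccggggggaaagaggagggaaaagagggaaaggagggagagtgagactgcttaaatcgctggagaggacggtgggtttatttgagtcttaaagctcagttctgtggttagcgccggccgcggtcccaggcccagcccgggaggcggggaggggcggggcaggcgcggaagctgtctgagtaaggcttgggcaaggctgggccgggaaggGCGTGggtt

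The libraries held 32799682 to 45469353 counts each. Levels are given as CPM, counts scaled to the same library size with TMM factors found separately in each line, and fold changes are log2 values ± SE. CPM of BE2C and Kelly set side by side are thus not on a common TMM scale. The 47 genes together took 0.160% to 0.169% of the counts in BE2C control and shAhR-1 libraries, 0.257% to 0.276% in BE2C shAhR-2 and 0.123% to 0.129% in Kelly. Within groups, pairs of libraries differed by a chi-square of 2.82 to 6.59 per degree of freedom over genes, except that the first BE2C shAhR-2 library differed from the other 2 of its group by 20.9 and 22.8. Mitochondrial genes took 25.1% of its counts against 20.5% in the other 2, 18.8% to 19.4% in BE2C controls and 24.3% to 24.9% with shAhR-1. In Kelly the share was 14.5% to 15.6% in controls, 17.4% to 17.7% in the libraries labelled shAhR-1 and 15.2% to 15.8% with shAhR-2. The part of this share in the changes below was not tested. The main counts of called members for BE2C shAhR-2 are also given without the library that stands apart. RNA was measured in bulk, so fewer cells expressing a gene and less of its RNA per cell cannot be told apart.

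In the vector controls the lines held different members of the set. Of the 41 genes that passed the filter in a fit of all 18 libraries, 28 were higher in BE2C and 13 higher in Kelly, all 41 at an adjusted p below 0.05, where 76.2% of the 17136 genes tested were called (37.2% higher in BE2C and 39% lower). The median of the 41 was 1.66 on the log2 scale, BE2C less Kelly, beside -0.03 over all genes. For 7 of the 28, Kelly controls had no counts, and the median was 1.66 also with these at the bound from 3 counts over the group. S100A6, S100A10 and S100A11, small calcium-binding proteins of which S100A10 pairs with annexin A2, had 0 counts in all 9 Kelly libraries. They reached 17.3 to 21.5, 30.6 to 31.9 and 97.3 to 111 CPM in the BE2C controls, at least 782-, 1283- and 4201-fold higher than in the Kelly controls.

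NT5E (CD73, the surface enzyme that makes adenosine from AMP, chr6:85449584-85495791, GRCh38, GENCODE release 29) was at 88.5, 87.2 and 87.3 CPM in BE2C controls and at 2.65, 2.39 and 2.15 in Kelly controls (5.26 ± 0.067 higher in BE2C). LUM and DCN, small leucine-rich proteoglycans of the matrix, and LGALS1 (galectin-1) were also higher in BE2C, by 6.51 ± 0.13, 7.11 ± 0.43 and 4.45 ± 0.11. Kelly held more of the matrix and adhesion genes FN1, FBN1, SPARC, MFAP2 and CD44. CD44, the hyaluronan receptor, stood at 47.4, 49.2 and 47.1 CPM in Kelly against 5.51, 5.45 and 5.99 in BE2C (-3.01 ± 0.070), with no overlap. FBN1 (fibrillin-1) and SPARC (osteonectin) were lower in BE2C as well (-2.78 ± 0.094 and -2.47 ± 0.048). The 33 calls that remained under every alternative did not include SNAI1, ZEB1, PRRX1, WWTR1, CCN2, FOSL1, FOSL2 or ELN. The SNAI1 call was lost without the first BE2C, or the first or second Kelly control (adjusted p up to 0.474), and the PRRX1 call without the third BE2C, or the first or second Kelly control (up to 0.0917). That of WWTR1 was lost without the first BE2C or the second Kelly control (up to 0.120), that of FOSL1 without the second or the third BE2C or the second Kelly control (up to 0.177), and that of ELN without the third BE2C or the first Kelly control (up to 0.125).

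**Figure D1:**
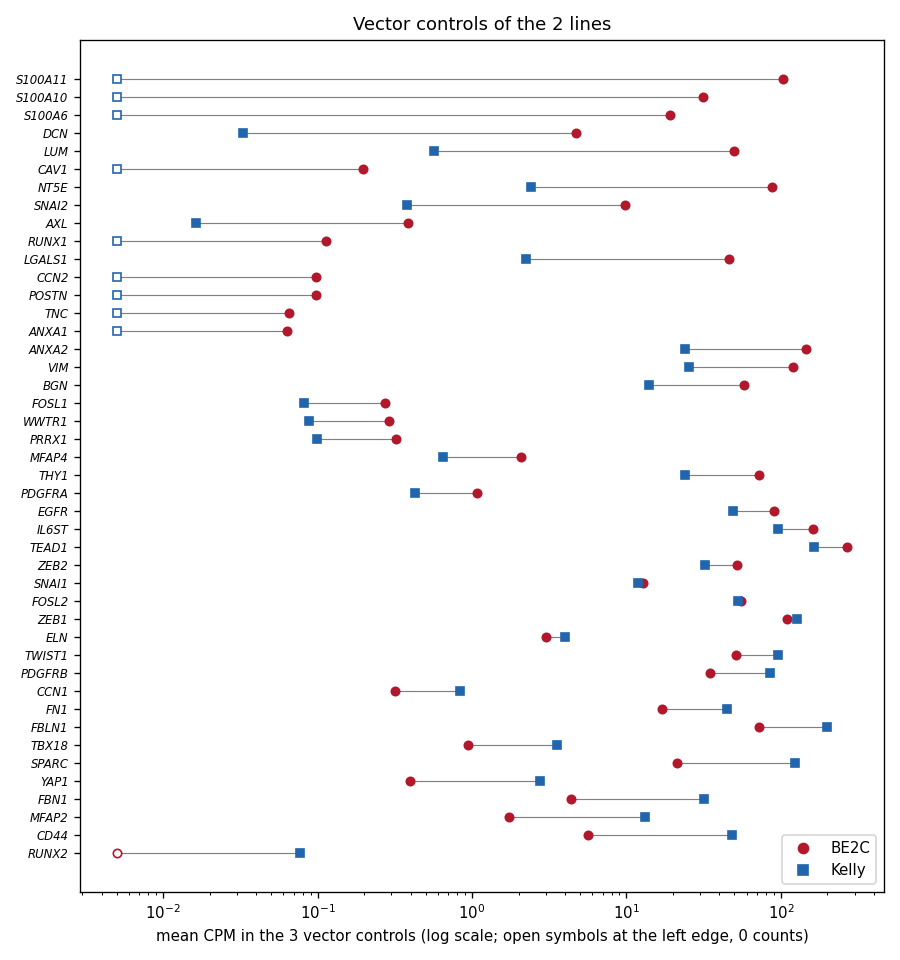
Mean CPM (log axis) of 44 of the genes in the 3 vector-control libraries of BE2C (circles) and Kelly (squares), ordered by the difference. Open symbols at the left edge mark genes with 0 counts. NT5E, LUM, DCN and the S100 genes lie far to the right in BE2C, and CD44, FBN1, MFAP2 and SPARC in Kelly.

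Per kilobase of exon, S100A11 was the most abundant member in BE2C controls (151 CPM per kb), and TWIST1, a bHLH factor of neural crest and mesoderm, in Kelly controls (47.2 CPM per kb).  PRRX1, a homeobox factor that can drive the mesenchymal neuroblastoma state, did not exceed 0.487 CPM in any of the 18 libraries. The 11 adrenergic core regulators summed to 2817 to 2894 CPM in BE2C controls and 3984 to 4062 CPM in Kelly controls. Adrenergic regulators, which mark the labelled cell type, were thus present in every group, the lowest sum being 2613 CPM in a BE2C shAhR-1 library.

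Against the vector, the 2 hairpins gave different counts of members in each line, and both comparisons of a line share its 3 control libraries. In BE2C, 40 of the 47 genes passed the filter on low counts. ANXA1, FBN2, RUNX2, MEOX1, MEOX2, POSTN and TNC did not, with at most 0.348 CPM in any BE2C library. With shAhR-1, 17 of the 40 were higher and 11 lower, 70.0% called, where 52.3% of 15732 genes were called (25.2% higher and 27.1% lower). When each library was left out in turn, 12 to 16 were higher and 11 to 12 lower. Of the 28 calls, 21 remained under every alternative. Those lost, of CD44, TBX18, FBN1, PDGFRA, RUNX1, CAV1 and ELN, were all higher. The median change of the members was 0.13 beside 0.01 over all genes. With shAhR-2, 30 of 40 were higher and 5 lower, 87.5% called, where 75.1% of genes were called (38% higher and 37.2% lower). The median was 0.76 beside 0.03. Without the first shAhR-2 library, 29 were higher and 5 lower. The summed CPM of all 47 genes was 1685 to 1735 in the controls, 1621 to 1637 with shAhR-1 and 2548 to 2603 with shAhR-2, so that the shAhR-2 libraries lay above all others and the shAhR-1 libraries just below the controls.

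In Kelly, 30 genes passed the filter. The libraries labelled shAhR-1 had 14 of the 30 higher and 13 lower, 90.0% called, where 60.5% of 15871 genes were called (29.6% higher and 31% lower), with a median of -0.03 beside 0.00 over all genes. With shAhR-2, 10 were higher and 18 lower, 93.3% called, where 75.4% of genes were called (37.2% higher and 38.2% lower), with a median of -0.70 beside -0.01. The 17 genes that did not pass were PRRX1, ANXA1, S100A6, S100A10, S100A11, WWTR1, CCN2, DCN, FBN2, RUNX1, RUNX2, MEOX1, MEOX2, CAV1, POSTN, TNC and AXL. POSTN (periostin), untested, had 0 counts in the Kelly controls and 40 counts over the 3 libraries labelled shAhR-1, at least 14.7-fold higher. Summed over all 47 genes, Kelly held 1276 to 1285 CPM in controls, 1229 to 1254 in the libraries labelled shAhR-1 and 1243 to 1254 with shAhR-2, a much narrower range than in BE2C.

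Some members were called in 1 direction with both hairpins of a line. In BE2C 13 were higher and 2 lower with both (12 and 2 without the first shAhR-2 library), where 32% of genes were (14.6% higher and 17.4% lower). Over all 9 BE2C libraries left out in turn, 10 to 12 were higher and 2 to 3 lower. In Kelly 4 were higher and 7 lower, where 27.2% were (12.9% higher and 14.3% lower). Both contrasts of a line use the same controls, so nothing more is read from these counts.

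**Figure D2:**
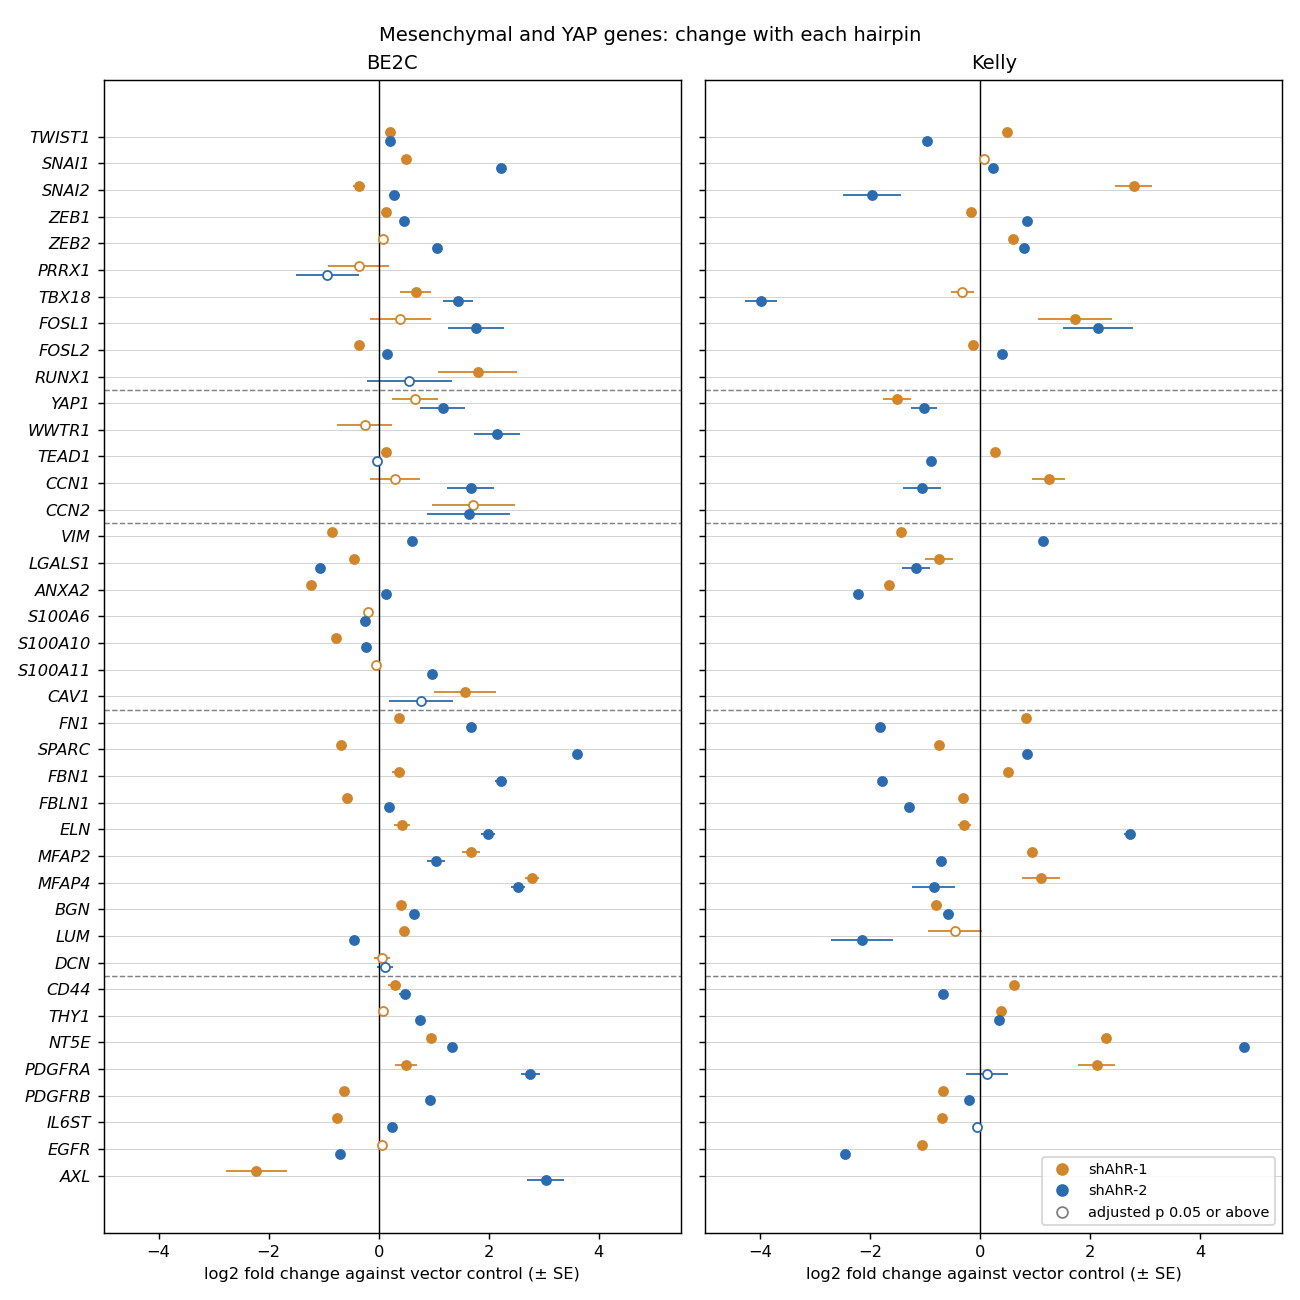
Log2 fold change ± SE against the vector control for the 40 genes tested in BE2C (left) and those of them tested in Kelly (right), grouped by role, with shAhR-1 in orange and shAhR-2 in blue. Open points did not reach an adjusted p of 0.05. In BE2C most shAhR-2 points lie to the right of 0 (30 of 40 called higher), and in Kelly 18 of 30 lie to the left and were called lower.

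Among the transcription factors, SNAI1 (Snail, a zinc-finger repressor of E-cadherin, chr20:49982999-49988886) rose in BE2C with both hairpins. It stood at 15.2, 12.3 and 11.2 CPM in the controls, 16.7, 18.8 and 19.1 with shAhR-1 and 57.2, 60.8 and 63.0 with shAhR-2. No shAhR library overlapped the controls, and the shAhR-2 libraries were far above the rest (0.50 ± 0.083, adjusted p = 4.85e-06, and 2.23 ± 0.077, adjusted p = 6.14e-23). In Kelly SNAI1 stayed within 11.2 to 14.5 CPM in all 9 libraries. It was not called in the libraries labelled shAhR-1 (0.08, 95% interval -0.09 to 0.25), and its call with shAhR-2 (0.23 ± 0.083) was lost without the first control or the second shAhR-2 library (adjusted p = 0.0621 and 0.0553).

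ZEB1 and ZEB2, related repressors that bind E-boxes, were among the abundant members. ZEB1 stood at 113, 109 and 108 CPM in BE2C controls, 122, 119 and 120 with shAhR-1 and 153, 149 and 153 with shAhR-2, a stepwise order without overlap (0.13 ± 0.035 and 0.47 ± 0.034). In Kelly ZEB1 was at 126, 133 and 123 CPM in controls, 113, 112 and 119 in the libraries labelled shAhR-1 and 228, 227 and 236 with shAhR-2, so it fell slightly in the former (-0.16 ± 0.034) and rose in the latter (0.85 ± 0.033). ZEB2 in Kelly was at 34.5, 28.8 and 32.9 CPM in controls, 48.4, 47.9 and 50.1 in the libraries labelled shAhR-1 and 56.6, 53.8 and 56.7 with shAhR-2. Both Kelly hairpin groups lay above the controls (0.61 ± 0.053 and 0.80 ± 0.052). In BE2C, ZEB2 rose with shAhR-2, from 51.0, 52.5 and 53.3 to 114, 106 and 107 CPM (1.06 ± 0.042), and with shAhR-1 was at 54.8, 55.4 and 54.8 CPM (0.07, 95% interval -0.01 to 0.16, not called). Reads of SNAI1 and ZEB2 may be shared with 1 annotated pseudogene each.

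TWIST1 changed little in BE2C and more in Kelly. Its BE2C levels were 53.5, 47.7 and 53.2 CPM in controls, 59.9, 60.8 and 56.6 with shAhR-1 and 61.2, 59.5 and 58.6 with shAhR-2 (0.20 ± 0.049 and 0.22 ± 0.049). In Kelly it went from 99.3, 88.9 and 99.5 CPM to 137, 137 and 130 in the libraries labelled shAhR-1 and to 48.7, 48.6 and 50 with shAhR-2, above and below the controls without overlap (0.49 ± 0.038 and -0.96 ± 0.041). SNAI2 (Slug), a neural crest relative of SNAI1, was low in Kelly, at 0.317, 0.394 and 0.425 CPM in controls, 1.90, 2.92 and 3.05 in the libraries labelled shAhR-1 and 0.05, 0.0474 and 0.177 with shAhR-2 (2.79 ± 0.34 and -1.97 ± 0.53). BE2C had 10.5, 9.64 and 9.10 CPM of SNAI2 in controls, 7.16, 8.84 and 6.85 with shAhR-1 (-0.36 ± 0.11) and 12.4, 12.3 and 10.9 with shAhR-2 (0.29 ± 0.10), so the direction of each hairpin was the reverse of that in Kelly. The BE2C shAhR-2 call of SNAI2 was lost without the third control, the first or the second shAhR-2 library (adjusted p = 0.0516 to 0.0705).

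TBX18, a T-box factor of mesenchymal progenitors, was below 5 CPM everywhere, with the steepest fall of any tested member in Kelly shAhR-2: 2.74, 3.47 and 4.39 CPM in the controls, and 0.250, 0.0948 and 0.310 with the hairpin (-3.98 ± 0.29). In BE2C it rose with shAhR-2, from 1.17, 0.999 and 0.641 to 2.71, 2.33 and 2.65 CPM (1.45 ± 0.27). It was not called in the Kelly libraries labelled shAhR-1 (-0.32 ± 0.20). Its shAhR-1 call in BE2C (0.67 ± 0.28, adjusted p = 0.0464) was lost without any 1 of 6 libraries (the second or the third of each group; adjusted p up to 0.206). PRRX1 was not called in either BE2C contrast (-0.36 ± 0.55 and -0.93 ± 0.57). It stood at 0.243, 0.285 and 0.444 CPM in BE2C controls, 0.273, 0.235 and 0.243 with shAhR-1, and 0.228, 0.152 and 0.126 with shAhR-2. In Kelly it was at 0.0905, 0.0492 and 0.160 CPM in controls, 0.118, 0.487 and 0.250 in the libraries labelled shAhR-1 and 0 in all 3 shAhR-2 libraries. These levels are too low to order the groups.

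Of the AP-1 members, FOSL2, a FOS-related subunit, was well expressed at 42.5 to 71.2 CPM and moved by at most 0.40 on the log2 scale. It rose with shAhR-2 in both lines (0.15 ± 0.045 in BE2C and 0.40 ± 0.046 in Kelly) and fell with shAhR-1 in BE2C (-0.35 ± 0.047). The small fall among Kelly libraries labelled shAhR-1 (-0.13 ± 0.048) was lost without the second control, or the second or the third of those libraries (adjusted p up to 0.114). FOSL1 (FRA1), a subunit known from mesenchymal and invasive cells, did not exceed 1.26 CPM. It was higher with shAhR-2 in BE2C (1.77 ± 0.51) and Kelly (2.15 ± 0.64), and its call in the Kelly libraries labelled shAhR-1 (1.73 ± 0.68) was lost without the first or second control, or the second or the third of those libraries (adjusted p up to 0.127). The runt factors RUNX1 and RUNX2 did not exceed 0.636 and 0.186 CPM, nor MEOX1 and MEOX2 0.0486 and 0.250 CPM, in any library.

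The YAP arm of the set was lopsided in both lines: TEAD1, the DNA-binding partner, was abundant, and the coactivators and their textbook targets were scarce. In BE2C controls TEAD1 had 26.1 CPM per kb, YAP1 0.0628 and WWTR1 0.0347. In Kelly controls the values were 16.0, 0.436 and 0.0105 CPM per kb. CCN2 (CTGF) had 0 counts in all 9 Kelly libraries and at most 0.534 CPM in BE2C.

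YAP1 (chr11:102110461-102233423) fell in both Kelly hairpin groups. Its CPM was 2.65, 2.46 and 3.14 in controls, 0.770, 0.946 and 1.15 in the libraries labelled shAhR-1 and 1.87, 1.14 and 1.08 with shAhR-2, all 6 below the controls (-1.51 ± 0.25, adjusted p = 7.02e-07, and -1.01 ± 0.23, adjusted p = 0.000136). In BE2C it stood at 0.461, 0.428 and 0.296 CPM in controls, 0.522, 0.602 and 0.753 with shAhR-1 and 0.958, 0.784 and 0.927 with shAhR-2. The shAhR-2 difference was called (1.16 ± 0.41, adjusted p = 0.0108) and that of shAhR-1 was not (0.66, 95% interval -0.17 to 1.48). Annotated pseudogenes of YAP1 number 2, so reads may be split among them.

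WWTR1 rose in BE2C with shAhR-2, from 0.388, 0.190 and 0.296 to 1.14, 1.5 and 1.26 CPM (2.15 ± 0.42). With shAhR-1 it was at 0.227, 0.314 and 0.194 CPM, within the range of the controls (-0.25, 95% interval -1.22 to 0.72), and in Kelly no library exceeded 0.284 CPM. TEAD1 was at 264, 265 and 277 CPM in BE2C controls, 290, 292 and 304 with shAhR-1 (0.14 ± 0.030) and 261, 263 and 263 with shAhR-2 (-0.04, 95% interval -0.09 to 0.02). Kelly TEAD1 moved from 156, 170 and 166 CPM to 197, 199 and 199 in the libraries labelled shAhR-1 and to 88.1, 88.9 and 89.0 with shAhR-2. The groups were separate, and the shAhR-2 fall was the larger of the differences (0.28 ± 0.032 and -0.89 ± 0.033).

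The targets within the set, CCN1 (CYR61) and CCN2, are secreted matricellular proteins. CCN1 was at 0.291, 0.262 and 0.395 CPM in BE2C controls, 0.363, 0.471 and 0.340 with shAhR-1 (0.30 ± 0.46, not called) and 0.935, 1.09 and 1.01 with shAhR-2 (1.67 ± 0.42). In Kelly it stood at 0.724, 1.08 and 0.691 CPM in controls, 1.96, 1.76 and 2.22 in the libraries labelled shAhR-1 (1.25 ± 0.29) and 0.300, 0.403 and 0.487 with shAhR-2 (-1.06 ± 0.35). Both Kelly groups lay outside the controls, in opposite directions, although the shAhR-2 call was lost without the second control (adjusted p = 0.0514). CCN2, whose promoter with 3 TEAD matches is printed above, was at 0.0971, 0.0476 and 0.148 CPM in BE2C controls, 0.409, 0.0262 and 0.534 with shAhR-1 and 0.456, 0.348 and 0.126 with shAhR-2. The groups overlapped. Its shAhR-2 call (1.64 ± 0.75, adjusted p = 0.0493) was lost with DESeq2 (adjusted p = 0.0639) and without 1 of 7 libraries (every control, the first and the third shAhR-1 and the first and second shAhR-2 libraries; adjusted p up to 0.192), and its shAhR-1 difference (1.72 ± 0.75) was not called.

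Other genes of the pathway were read from lists of 24 Hippo genes and TEAD partners and 20 further YAP targets. Of the 23 Hippo genes tested in BE2C, 8 were higher and 4 lower with shAhR-1, 52.2% called beside 52.3% of all genes, and 14 higher and 5 lower with shAhR-2, 82.6% beside 75.1%. In Kelly, 15 were higher and 6 lower in the libraries labelled shAhR-1, 91.3% beside 60.5%, and 8 higher and 13 lower with shAhR-2, 91.3% beside 75.4%. The medians were 0.02 and 0.47 in BE2C and 0.26 and -0.27 in Kelly. TEAD3, a paralogue of TEAD1, was higher with both hairpins in both lines (1.51 ± 0.12 and 2.69 ± 0.11 in BE2C, 0.31 ± 0.072 and 0.37 ± 0.071 in Kelly). NF2 (merlin), an upstream activator of the kinases, was lower throughout, at -1.54 ± 0.051 and -0.60 ± 0.048 in BE2C and -1.40 ± 0.052 and -0.16 ± 0.048 in Kelly. TAOK3, a kinase that activates the pathway, was higher throughout (0.65, 0.53, 0.76 and 0.94 in the same order). In Kelly TEAD2 and STK3 (the kinase MST2) fell with both (-0.50 and -1.22, and -0.44 and -1.33).

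Of the 19 further YAP targets tested in BE2C, 6 were higher and 4 lower with shAhR-1, 52.6% called beside 52.3% of all genes, and 12 higher and 5 lower with shAhR-2, 89.5% beside 75.1%, with medians of 0.17 and 1.23. Of the 16 tested in Kelly, 6 were higher and 3 lower in the libraries labelled shAhR-1, 56.2% beside 60.5%, and 6 higher and 6 lower with shAhR-2, 75% beside 75.4%, with medians of 0.22 and 0.07. These shares are near those of all genes except with shAhR-2 in BE2C. TAGLN (transgelin), an actin-binding protein of contractile cells, rose in BE2C by 0.50 ± 0.12 and 2.30 ± 0.11. IGFBP3, a binding protein of insulin-like growth factors, fell there (-0.85 ± 0.12 and -1.72 ± 0.12). Of the 9 other AP-1 genes, 3 were lower and 6 not called in BE2C with shAhR-1, 33.3% called beside 52.3% of all genes, and with shAhR-2, where 75.1% of all genes were called, 8 were higher and 1, JUND, lower (-1.01 ± 0.055). In Kelly, 5 of the 9 were higher and 4 lower in the libraries labelled shAhR-1, 100% called beside 60.5% of all genes. With shAhR-2 there, 4 were higher and 2 lower, 66.7% beside 75.4%. JUN, the central AP-1 subunit, rose in Kelly by 1.68 ± 0.044 in the libraries labelled shAhR-1 and 1.07 ± 0.045 with shAhR-2.

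**Figure D3:**
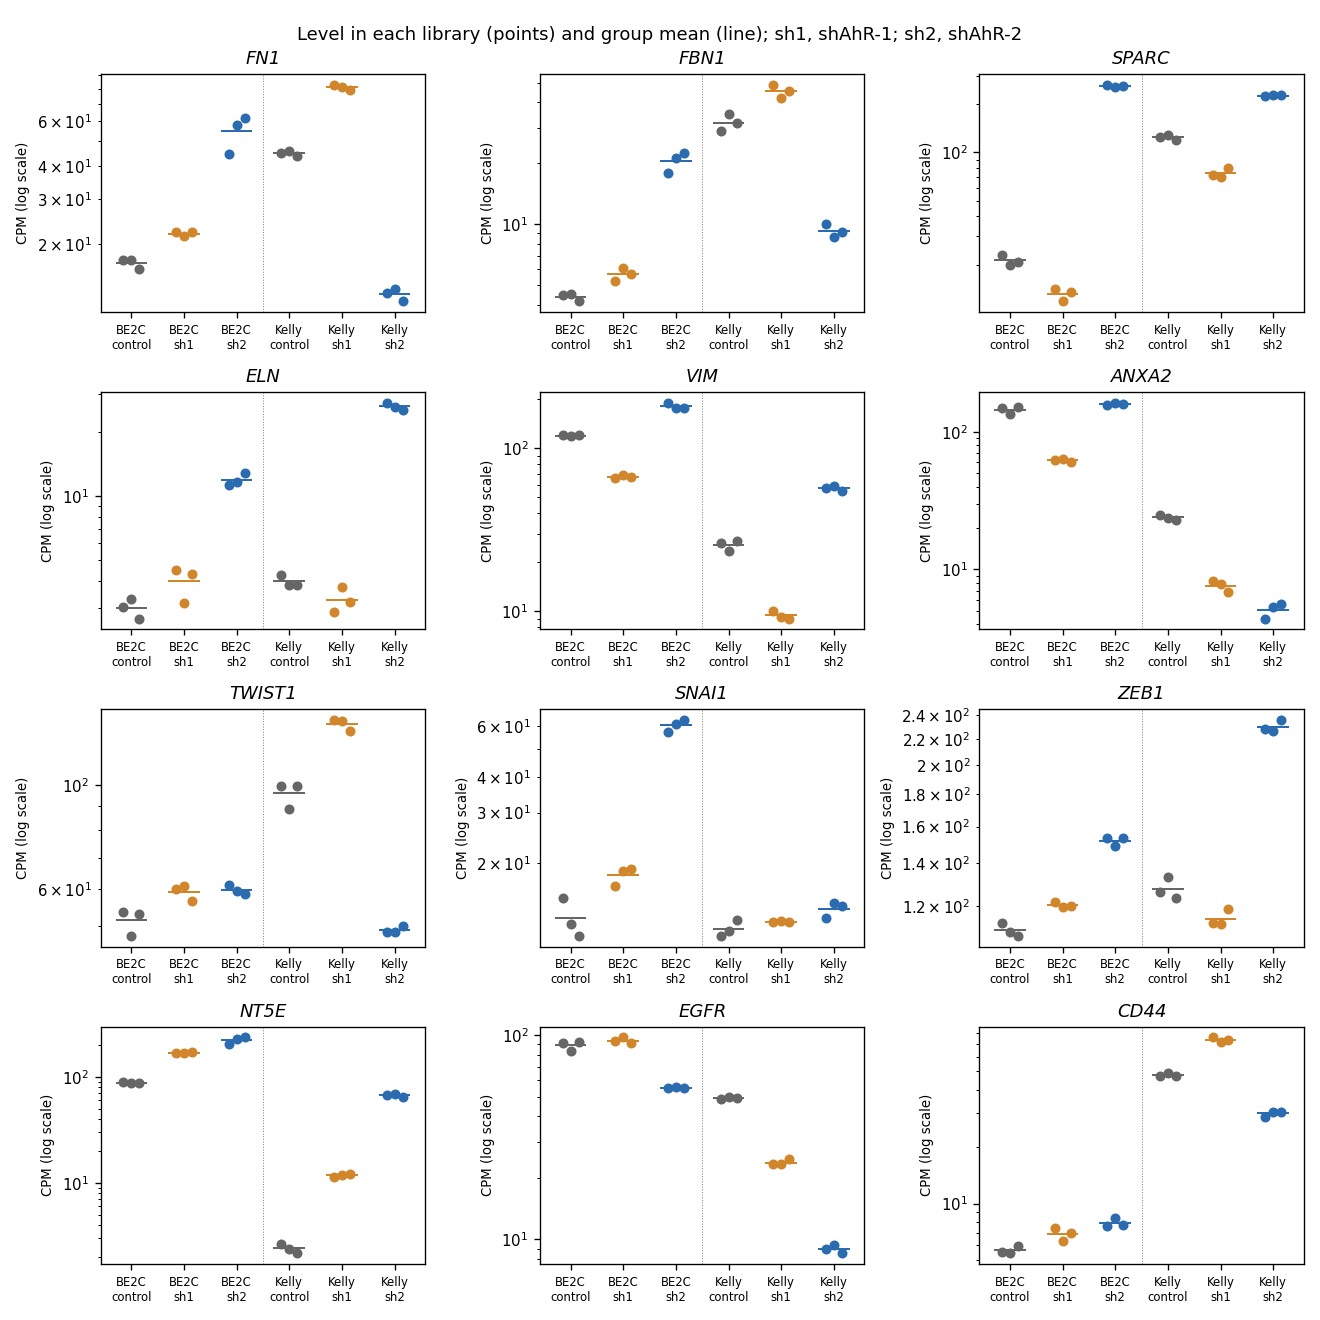
CPM of 12 genes in each library (points, log axes) with the mean of each group (lines), for BE2C left of the dotted line and Kelly right of it. FN1, FBN1, TWIST1 and CD44 go up in BE2C shAhR-2 and down in Kelly shAhR-2, and NT5E goes up in all 4 hairpin groups.

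The cytoskeletal and membrane genes followed other directions. VIM, the intermediate filament protein vimentin, fell with shAhR-1 and rose with shAhR-2 in both lines. BE2C held 121, 118 and 121 CPM in controls, 65.8, 68.8 and 66.8 with shAhR-1 and 191, 178 and 178 with shAhR-2 (-0.84 ± 0.038 and 0.61 ± 0.036). Kelly held 26.3, 23.4 and 26.9 CPM in controls, 10, 9.22 and 9.01 in the libraries labelled shAhR-1 and 56.7, 58.7 and 55.1 with shAhR-2 (-1.44 ± 0.069 and 1.16 ± 0.057). All groups were separate. Of the exonic bases of VIM, 24.4% overlap other annotated genes, among them the antisense VIM-AS1, and no strand setting is given for the counts, so reads of the pair cannot be told apart.

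ANXA2 (annexin A2), a calcium-dependent membrane-binding protein, fell in Kelly from 24.8, 23.8 and 23.0 CPM to 8.18, 7.81 and 6.81 in the libraries labelled shAhR-1 and to 4.40, 5.31 and 5.62 with shAhR-2 (-1.66 ± 0.091 and -2.22 ± 0.094). In BE2C it fell with shAhR-1, from 150, 134 and 150 to 62.4, 63.7 and 60.1 CPM (-1.22 ± 0.041), and stood at 156, 163 and 158 with shAhR-2. That last difference (0.14 ± 0.039) was lost without the second control (adjusted p = 0.0628). Reads of ANXA2 may be shared with 3 annotated pseudogenes. S100A10, its partner, was at 31.8, 31.9 and 30.6 CPM in BE2C controls, 19.0, 18.3 and 17.9 with shAhR-1 and 26.2, 27.1 and 27.1 with shAhR-2, below the controls in all 6 hairpin libraries (-0.77 ± 0.063 and -0.23 ± 0.060). S100A11 went from 111, 97.3 and 100 CPM in BE2C controls to 205, 199 and 202 with shAhR-2 (0.97 ± 0.039), while shAhR-1 gave 97.0, 101 and 99.3 (-0.05, 95% interval -0.13 to 0.02). S100A11 has 2 annotated pseudogenes that could take or give reads. S100A6 was not called with shAhR-1 (-0.18 ± 0.087), and its lower call with shAhR-2 (-0.24 ± 0.087) was lost without the second control or the third shAhR-2 library (adjusted p up to 0.120).

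LGALS1 was lower in all 4 contrasts. In BE2C it went from 47.0, 44.8 and 47.2 CPM to 35.0, 34.4 and 33.1 with shAhR-1 and 19.6, 23.9 and 22.9 with shAhR-2 (-0.44 ± 0.061 and -1.07 ± 0.062). Kelly controls held 2.31, 2.41 and 1.94 CPM, against 1.75, 0.865 and 1.37 in the libraries labelled shAhR-1 (-0.75 ± 0.26) and 1.00, 1.23 and 0.753 with shAhR-2 (-1.16 ± 0.26). The call in the libraries labelled shAhR-1 was lost without the second of them (adjusted p = 0.0949). ANXA1 did not exceed 0.243 CPM in any library, and CAV1 (caveolin-1), which coats membrane pits, 0.826 CPM.

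Among the matrix genes of BE2C, SPARC, FBN1, FN1 and ELN were higher with shAhR-2 than with shAhR-1, and MFAP2, MFAP4 and LUM were lower. SPARC, a collagen-binding matricellular protein (chr5:151661096-151687165), stood at 22.9, 20 and 20.8 CPM in controls, 14.0, 11.9 and 13.4 with shAhR-1 and 261, 255 and 258 with shAhR-2. The shAhR-2 libraries were more than 10 times above every other BE2C library (3.60 ± 0.049, adjusted p = 1.33e-33), and the shAhR-1 libraries were all below the controls (-0.69 ± 0.059). Kelly SPARC kept the same order of groups: 124, 129 and 120 CPM in controls, 72.6, 70.2 and 79.7 in the libraries labelled shAhR-1 and 224, 226 and 226 with shAhR-2 (-0.74 ± 0.037 and 0.86 ± 0.035).

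FBN1 (chr15:48408306-48645849), the main protein of microfibrils, was at 4.47, 4.52 and 4.17 CPM in BE2C controls, 5.25, 6.07 and 5.68 with shAhR-1 and 18, 21.3 and 22.3 with shAhR-2 (0.37 ± 0.12 and 2.23 ± 0.11). The shAhR-1 call was lost without the second shAhR-1 library (adjusted p = 0.0507). In Kelly it went the other way with shAhR-2, from 28.9, 34.9 and 31.5 CPM to 10, 8.68 and 9.12 (-1.78 ± 0.073), and up in the libraries labelled shAhR-1, to 48.5, 42.2 and 45.3 (0.51 ± 0.063). FN1 (fibronectin, chr2:215360440-215436172) had the same pattern: 17.4, 17.5 and 16.1 CPM in BE2C controls, 22.3, 21.5 and 22.3 with shAhR-1, and 44.7, 58.0 and 61.4 with shAhR-2, the lowest of these being the library that stands apart. Without that library the shAhR-2 change was 1.8 in place of 1.69. Kelly FN1 was at 45.1, 46.0 and 44.0 CPM in controls, 82.4, 81.4 and 78.7 in the libraries labelled shAhR-1 (0.84 ± 0.047) and 13.0, 13.5 and 12.1 with shAhR-2 (-1.81 ± 0.055).

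ELN (elastin), which is laid on fibrillin microfibrils, did not follow FBN1 in Kelly. It stood at 4.27, 3.84 and 3.83 CPM in Kelly controls and 27.4, 26.2 and 25.4 with shAhR-2 (2.72 ± 0.096, adjusted p = 1.28e-30), while the libraries labelled shAhR-1 had 2.87, 3.73 and 3.19. The small fall in the latter (-0.28 ± 0.12) was lost without the first control, or the first or the third of those libraries (adjusted p up to 0.181). In BE2C ELN rose with shAhR-2, from 3.01, 3.31 and 2.66 to 11.2, 11.6 and 12.8 CPM (1.99 ± 0.13). With shAhR-1 it was at 4.50, 3.17 and 4.32 CPM, overlapping the controls (0.42 ± 0.15), and that call was lost without the third control, or the first or the third shAhR-1 library (adjusted p up to 0.114).

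The microfibril-associated MFAP4 rose with both hairpins in BE2C and stood at 2.45, 2.19 and 1.60 CPM in controls, 14.4, 15.4 and 13.4 with shAhR-1 and 12.7, 12.8 and 11 with shAhR-2 (2.79 ± 0.13 and 2.54 ± 0.13). MFAP2, of the same class, also rose with both there (1.67 ± 0.16 and 1.05 ± 0.17). In Kelly MFAP2 was 0.94 ± 0.081 higher in the libraries labelled shAhR-1 and lower with shAhR-2 (-0.72 ± 0.088). MFAP4 in Kelly was under 1.6 CPM in every library, and its shAhR-2 call (-0.84 ± 0.39, adjusted p = 0.0483) was lost under RLE size factors, and without the first or the third control, the first shAhR-2 library or any library labelled shAhR-1 (adjusted p up to 0.182).

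BGN (biglycan), a matrix proteoglycan, rose in BE2C with both hairpins and fell in both Kelly groups. The BE2C values were 59.2, 56.0 and 57.8 CPM in controls, 74.8, 81.0 and 74.4 with shAhR-1 and 87.4, 91.7 and 91.0 with shAhR-2 (0.41 ± 0.043 and 0.64 ± 0.043). The Kelly values were 15.9, 11.4 and 14.8 CPM in controls, 9.01, 8.44 and 6.94 in the libraries labelled shAhR-1 and 9.20, 9.41 and 9.65 with shAhR-2 (-0.79 ± 0.10 and -0.57 ± 0.10). No hairpin library overlapped the controls of its line. FBLN1 (fibulin-1) fell in Kelly from 202, 190 and 203 CPM to 162, 164 and 155 in the libraries labelled shAhR-1 and to 80.0, 84.6 and 77.4 with shAhR-2 (-0.30 ± 0.034 and -1.30 ± 0.035), and in BE2C fell with shAhR-1 (-0.58 ± 0.045) and rose with shAhR-2 (0.18 ± 0.044). LUM (lumican) rose with shAhR-1 and fell with shAhR-2 in BE2C (0.46 ± 0.053 and -0.45 ± 0.055) and was lower with shAhR-2 in Kelly, where no library exceeded 0.814 CPM (-2.14 ± 0.57). In BE2C DCN (decorin) was called with neither (0.06 ± 0.14 and 0.12 ± 0.14).

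Among surface proteins NT5E moved one way in all 4 contrasts. BE2C NT5E went from 88.5, 87.2 and 87.3 CPM to 168, 167 and 171 with shAhR-1 and 203, 226 and 236 with shAhR-2 (0.95 ± 0.040 and 1.34 ± 0.040). From its low level of 2.65, 2.39 and 2.15 CPM in Kelly controls it reached 11.4, 11.8 and 12.2 in the libraries labelled shAhR-1 and 68.0, 68.3 and 65.0 with shAhR-2. The Kelly shAhR-2 change of 4.80 ± 0.079 (adjusted p = 3.95e-45) was the largest of any member against its control, and brought Kelly near the level of the BE2C controls. NT5E and LGALS1 were the 2 members, of 30 tested in both lines, called in 1 direction in all 4 contrasts, 1 higher and 1 lower, where 15.2% of 14680 genes were (6.34% higher and 8.88% lower). The contrasts of a line share their controls, so nothing more is read from this count.

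EGFR, the receptor of epidermal growth factor, fell in Kelly from 48.4, 50 and 49.1 CPM to 23.2, 23.3 and 24.7 in the libraries labelled shAhR-1 and to 8.97, 9.32 and 8.52 with shAhR-2 (-1.05 ± 0.058 and -2.46 ± 0.064). In BE2C EGFR fell with shAhR-2, from 91.7, 84.0 and 92.9 to 55.2, 55.4 and 55.1 CPM (-0.70 ± 0.043), and with shAhR-1 was at 93.1, 97.5 and 91.6 (0.07, 95% interval -0.01 to 0.15). PDGFRB, a receptor of platelet-derived growth factor typical of pericytes and fibroblasts, fell in both Kelly groups, from 85.9, 81.1 and 88.8 CPM to 53.9, 56.7 and 49.7 in the libraries labelled shAhR-1 and 74.7, 75.5 and 73.3 with shAhR-2 (-0.68 ± 0.044 and -0.19 ± 0.042). In BE2C it fell with shAhR-1 and rose with shAhR-2 (-0.63 ± 0.062 and 0.94 ± 0.058). Its relative PDGFRA rose in BE2C with shAhR-2 from 1.07, 0.952 and 1.21 to 7.44, 7.16 and 7.31 CPM (2.76 ± 0.18), and 15.8% of its exonic bases overlap another annotated gene. The PDGFRA call with shAhR-1 in BE2C (0.50 ± 0.20) was lost without 1 of 5 libraries (the first 2 controls, the first 2 shAhR-1 and the first shAhR-2 library; adjusted p up to 0.140). In Kelly PDGFRA was higher in the libraries labelled shAhR-1 (2.12 ± 0.33) and not called with shAhR-2 (0.13, 95% interval -0.61 to 0.87).

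CD44 in BE2C was at 7.41, 6.36 and 6.97 CPM with shAhR-1 and 7.57, 8.34 and 7.71 with shAhR-2, above the controls given earlier (0.29 ± 0.12 and 0.48 ± 0.11). The shAhR-1 call was lost without the first or second control, or the first or the third shAhR-1 library (adjusted p = 0.0800 to 0.155). Kelly CD44 moved in opposite directions, to 75.8, 71.8 and 73.8 CPM in the libraries labelled shAhR-1 and to 28.7, 30.6 and 30.7 with shAhR-2 (0.62 ± 0.045 and -0.68 ± 0.048). THY1 (CD90), a GPI-anchored protein of mesenchymal and neural cells, rose in Kelly from 23.6, 24.3 and 24.4 CPM to 31.9, 33.0 and 29.3 in the libraries labelled shAhR-1 and 30.5, 29.1 and 32.8 with shAhR-2 (0.38 ± 0.061 and 0.35 ± 0.060). In BE2C it rose with shAhR-2 (0.75 ± 0.040) and was not called with shAhR-1 (0.07, 95% interval -0.01 to 0.15). Of its exonic bases, 10.7% overlap another gene. AXL, a receptor tyrosine kinase of mesenchymal cells, was at 0.340, 0.428 and 0.395 CPM in BE2C controls, 0.0454, 0 and 0.194 with shAhR-1 and 3.38, 3.29 and 2.97 with shAhR-2 (-2.22 ± 0.56 and 3.04 ± 0.34). IL6ST (gp130), the shared receptor of the IL-6 family, fell with shAhR-1 in BE2C (-0.75 ± 0.036) and in the Kelly libraries so labelled (-0.69 ± 0.039). With shAhR-2 it rose in BE2C (0.24 ± 0.035) and was not called in Kelly (-0.05, 95% interval -0.12 to 0.02).

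The hairpins were also set against each other, without the controls. In BE2C, 25 of the 40 genes were lower with shAhR-1 than with shAhR-2 and 6 were higher (26 and 6 without the first shAhR-2 library), where 72.4% of all genes were called (36.5% lower and 35.9% higher). The widest gaps were AXL (-5.26 ± 0.43), SPARC (-4.30 ± 0.052) and WWTR1 (-2.40 ± 0.43), all lower with shAhR-1. TWIST1 and CD44 were not called between the hairpins in BE2C (-0.02, 95% interval -0.11 to 0.08, and -0.19, -0.40 to 0.03). In Kelly, 15 of 30 were higher in the libraries labelled shAhR-1 than with shAhR-2 and 9 lower, where 77.4% of genes were called (39.3% higher and 38.2% lower). SNAI2 (4.76 ± 0.42), TBX18 (3.66 ± 0.30) and FN1 (2.66 ± 0.054) were higher in the libraries labelled shAhR-1, and ELN (-3.01 ± 0.10), VIM (-2.60 ± 0.066) and NT5E (-2.50 ± 0.063) lower. These genes were picked after their values were seen, as those with the largest differences.

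The effect of a hairpin was then compared between the lines in 1 model of all 18 libraries, as the change in BE2C less the change in Kelly. For shAhR-2 the effect differed for 29 of the 41 genes tested, 24 of them higher in BE2C and 5 lower, where 54.7% of 17136 genes were called (28.8% higher and 25.8% lower). The median difference was 1.11 beside 0.05 over all genes. Of the 30 members tested in both lines, 14 were called in opposite directions with shAhR-2, each up in BE2C and down in Kelly. That was 46.7%, where 10.4% of genes were called in opposite directions. They were FN1, CD44, TBX18, TWIST1, SNAI2, ANXA2, YAP1, CCN1, BGN, FBN1, FBLN1, PDGFRB, MFAP2 and MFAP4. The calls of SNAI2 and ANXA2 in BE2C and of CCN1 and MFAP4 in Kelly were each lost without 1 or more single libraries, as given above. Without the first BE2C shAhR-2 library 13 of the 14 remained, SNAI2 being lost. The widest differences among them were TBX18 (5.42 ± 0.42), FBN1 (3.99 ± 0.13) and FN1 (3.48 ± 0.10). Without the first BE2C shAhR-2 library the effect differed for 28 genes. Of the 29 calls, 28 remained under every alternative, and that of PRRX1 did not.

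A further 10 of the 30 rose with shAhR-2 in both lines: SNAI1, ZEB1, ZEB2, VIM, SPARC, THY1, FOSL1, FOSL2, ELN and NT5E. LGALS1, LUM and EGFR fell in both. Genes called in 1 direction in both lines made up 13 of 30 members and 53.1% of all genes. Within these, the size could still differ: NT5E rose more in Kelly (-3.48 ± 0.086) and SPARC more in BE2C (2.73 ± 0.062). Genes with no Kelly counts, S100A6, S100A10, S100A11, CCN2 and CAV1, carry no information on a difference between lines and are among those not called.

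For shAhR-1 the effect differed for 25 of 41 genes, 12 higher in BE2C and 13 lower, where 35.7% of genes were called (17.5% higher and 18.2% lower), with a median of -0.14. Of the 25 calls, 20 remained under every alternative. Those of CD44, TBX18, TEAD1, LUM and FOSL2 were each lost without 1 or more single libraries (adjusted p up to 0.326). Of the 30 genes, 4 went in opposite directions, 13.3%, where 5.55% of genes did: ZEB1, BGN and ELN were higher in BE2C and lower in the Kelly libraries labelled shAhR-1, and SNAI2 the reverse (-3.15 ± 0.28). The ELN calls of both lines were each lost when single libraries were left out, as given above. In 17 of the 30 the direction was shared (30.0% higher and 26.7% lower in both), against 35.3% of all genes. FN1, CD44, TWIST1, TEAD1, FBN1, PDGFRA, MFAP2, MFAP4 and NT5E were higher in both, and VIM, LGALS1, ANXA2, SPARC, FBLN1, PDGFRB, FOSL2 and IL6ST lower in both. Among these, the calls of CD44, FBN1 and PDGFRA in BE2C and of LGALS1 and FOSL2 in Kelly were likewise lost without single libraries. For SPARC the change did not differ detectably between the lines (0.06, 95% interval -0.09 to 0.20), nor for PDGFRB (0.05, -0.10 to 0.20).

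**Figure D4:**
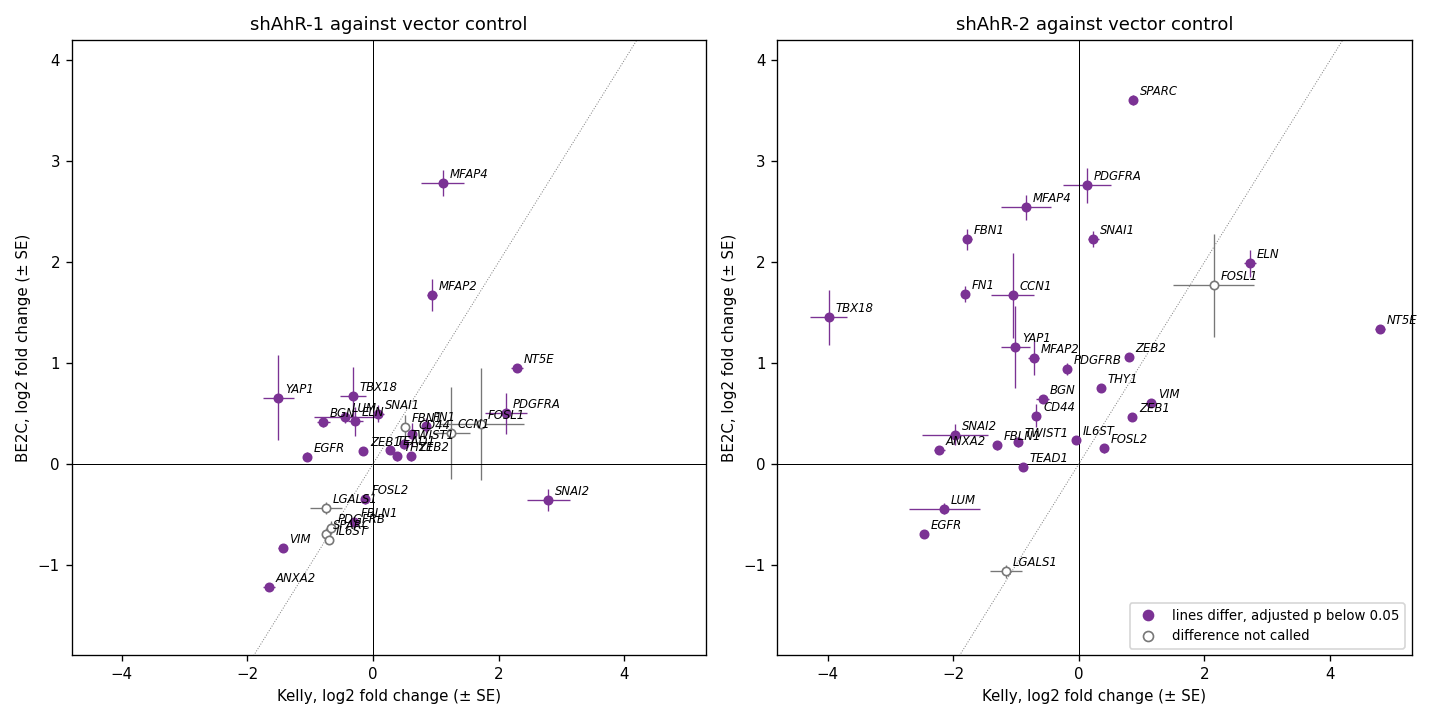
Log2 fold change ± SE of each member tested in both lines, Kelly on the horizontal and BE2C on the vertical axis, for shAhR-1 (left) and shAhR-2 (right); the dotted line marks equal change and filled points differed between lines at an adjusted p below 0.05. On the right, 14 genes lie in the upper left field, up in BE2C and down in Kelly.

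Markers of other cell types were read beside these changes. Of 10 fibroblast markers, 7 passed the filter in BE2C, and 4 were higher and 1 lower with shAhR-1, 71.4% called beside 52.3% of all genes. With shAhR-2 6 were higher and 1 not called, 85.7% beside 75.1%. Their summed CPM was 64.6 to 69.9 in BE2C controls, 92.9 to 98.4 with shAhR-1 and 333 to 343 with shAhR-2, and 320 to 348, 243 to 257 and 364 to 376 in the Kelly groups. COL6A3 carried much of the BE2C rise, at 123, 135 and 132 CPM with shAhR-2 against 4.32, 4.02 and 5.25 in controls, and COL3A1 went from 3.91, 4.16 and 3.77 to 39.4, 38.9 and 40.0. COL1A1 rose in BE2C from 69, 65 and 45 counts in controls to 1242, 1300 and 1128 with shAhR-2. In both Kelly groups COL1A1 fell (-3.02 and -0.54). ACTA2 rose in BE2C with both hairpins (1.65 and 1.99). Of the same list, PDPN and FAP were at 0 in all 18 libraries but for 0.0435 CPM of FAP in 1 BE2C shAhR-2 library. COL1A2 did not exceed 0.0592 CPM anywhere and was at 0 in all 6 shAhR-2 libraries.

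The 9 Schwann cell and glial markers summed to 21.9 to 25.5 CPM in BE2C controls and 71.0 to 79.6 with shAhR-2, and to 32.1 to 33.5 and 74.6 to 80.1 in Kelly. Most of this was PMP22, a myelin protein also made outside glia, at 57.2 to 66.4 CPM in BE2C shAhR-2. With shAhR-2 in BE2C, 5 of the 7 tested were higher and 0 lower, 71.4% called beside 75.1% of all genes. In Kelly 5 of 6 were higher and 1 lower with shAhR-2, where 75.4% of all genes were called. SOX10, of the same list, did not exceed 0.437 CPM in any library. Leukocyte markers summed to at most 1.51 CPM and endothelial markers to at most 8.87 CPM in any library. The 9 epithelial genes summed to 6.07 to 7.64 CPM in BE2C controls, 3.19 to 3.59 with shAhR-1 and 13.8 to 15.3 with shAhR-2, and to 4.58 to 5.47, 3.02 to 3.97 and 7.57 to 8.58 CPM in the Kelly groups. Of the 5 tested in BE2C, 3 were higher and 0 lower with shAhR-2 (median 1.5; 75.1% of all genes were called), and 0 were higher and 1 lower with shAhR-1. EPCAM, an epithelial adhesion molecule, went from 0.340, 0.904 and 0.370 CPM in BE2C controls to 6.41, 5.75 and 5.41 with shAhR-2 (3.43 ± 0.26), and in Kelly rose with shAhR-2 as well (2.32 ± 0.32). KRT8 (keratin 8) reached 1.51, 1.61 and 0.990 CPM with shAhR-2 in BE2C from at most 0.0476 CPM in the controls. CDH1 (E-cadherin), the classic target of SNAI1 and ZEB1, was at 0 in 5 of the 6 groups. Adrenergic regulators were not uniformly lower where members rose: with shAhR-2 in BE2C, 5 of 11 were higher and 6 lower, where 75.1% of all genes were called (38% higher and 37.2% lower). HAND2 fell by 2.18 on the log2 scale, while HAND1 rose from 17725, 18183 and 16813 counts to 39217, 41053 and 42607. The summed CPM of the 11 was 3046 to 3088 against 2817 to 2894 in controls. In Kelly with shAhR-2, 4 of 11 were higher and 7 lower, where 75.4% of all genes were called (37.2% higher and 38.2% lower). Their sum there was 5015 to 5115 CPM against 3984 to 4062 in controls. GATA2 carried this rise, from 41763, 38407 and 35052 counts in Kelly controls to 92631, 97510 and 101971 with shAhR-2. Among those lower there, HAND2 changed by -1.38, and TFAP2B went from 18479, 16625 and 15586 counts to 4863, 5430 and 5851. The part of these cells or programmes in the changes of the 47 genes was not tested.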

How the data were processed

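RNA of 18 libraries, 3 for each of 6 groups, was sequenced. RNA came from the miRNeasy kit, and libraries from RNA HyperPrep with RiboErase, which depletes ribosomal RNA, per the labels' protocols. Per the submitters' processing notes, CASAVA 1.8.2, STAR 2.7.9a and GRCh38.p7 were used. Counting tool, annotation and strand setting: not given in the sources used here. The authors deposited raw counts per gene in 1 table for each line. Of counts from 1 to 20, the even share ranged from 68.3% to 72.5%, so mates may have been counted separately. The depth of 32799682 to 45469353 counts per library sets the precision of low genes, and intervals cover spread between libraries only.

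The whole tables were fitted and only the members are printed. edgeR 4.0.16 (R 4.3.3) was used with filterByExpr, TMM, glmQLFit and glmQLFTest on the group, 1 fit for each line for the hairpin contrasts and 1 fit of all 18 libraries for the controls of both lines and for the difference of hairpin effects. Calls are at a Benjamini-Hochberg adjusted p below 0.05 over all genes tested. The SE is the absolute fold change over the square root of F, and 95% intervals from the SE. CPM use TMM library sizes from the fit of each line, and fold changes between lines come from the fit of all 18 libraries. Bounds for genes at 0 use 3 counts over the group and the same library sizes as CPM. Locations and exon lengths are from GENCODE release 29 (GRCh38), with CCN1 and CCN2 matched by gene identifier, and promoters from RefSeq (GRCh38.p14). No column was left without a sample.

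The members, the 9 lists of 105 other genes and the alternatives were chosen with earlier results of these data known. The lists were Hippo pathway and TEAD partners, other YAP targets, other AP-1 genes, epithelial genes, adrenergic core regulators, and fibroblast, Schwann cell and glial, endothelial and leukocyte markers. Every library is given for members called with both hairpins in 1 direction in a line with all 6 libraries beyond the controls, or with 1 hairpin at a log2 change of at least 1, provided that mean CPM reached 5, and for YAP1, WWTR1, TEAD1, CCN1, CCN2, FN1, VIM, CD44, PRRX1 and SNAI2. Others are given by range, count or a fold change. From the other lists, up to 3 genes per direction and line were eligible by the same measure. Some genes of these lists are not reported by name here.

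Alternatives were RLE size factors, no filter, a mean CPM of at least 1, the replicate number as a block, halved counts, the Wald test of DESeq2 1.42.0, only the groups compared, and leaving out each library. The edgeR step was tested on simulated data: for BE2C shAhR-2, over 15732 genes, 60% of 50 genes changed 1.25-fold and 84% changed 2-fold were recovered, with 11 false calls, and for Kelly shAhR-2, over 15871 genes, 58% and 90%, with 9 false calls. Figures used matplotlib 3.10.9 in Python 3.11.15.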

Additional observations from a re-analysis of the deposited data

Results flagged for a closer look

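The effect of a hairpin differed between the lines, by the interaction in the fit of all libraries, for 25 members with shAhR-1 and 29 with shAhR-2. The values below are log2 changes in BE2C less those in Kelly, for members that were also called in opposite directions in the 2 lines. With shAhR-1 they were -3.15 for SNAI2, 0.29 for ZEB1, 1.21 for BGN and 0.71 for ELN, and on the Kelly side they rest on the libraries labelled shAhR-1, in which AHR was not lower. The ELN call against the vector was lost in each line when single libraries were left out.

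With shAhR-2 the differences of transcription factors were 5.42 for TBX18, 2.23 for SNAI2 and 1.16 for TWIST1. Those of YAP1 and its target CCN1 were 2.16 and 2.71. Matrix genes differed by 3.99 for FBN1, 3.48 for FN1, 3.36 for MFAP4, 1.75 for MFAP2, 1.46 for FBLN1 and 1.2 for BGN. CD44, PDGFRB and ANXA2 differed by 1.14, 1.11 and 2.34. All 14 were up in BE2C and down in Kelly.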

How the results depend on the processing

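The alternatives left every count of called members within 1.5 times its value except the count called in all 4 contrasts, which was 1 to 2 when each library was left out in turn, LGALS1 being lost without the second Kelly library labelled shAhR-1. For BE2C the counts were 23 to 27 (shAhR-1) and 32 to 35 (shAhR-2) with 1 library left out and 25 to 28 and 29 to 35 under the other settings, and for Kelly 24 to 28 and 27 to 29, and 24 to 27 and 25 to 29. For members named with values in every library, 4211 alternative values kept direction and side of the threshold, 77 lost a call, 11 gained one and 0 changed sign while called; the cause was not tested. A mean CPM of at least 1 shifted the median of all genes by 0.11 for the shAhR-2 difference between lines, and shifts under other scalings were below 0.1. Replicate numbers did not pair the libraries: deviations of same-numbered libraries correlated at -0.031 to 0.025, with 0 of 18 pairs over 0.1, and 6 of 18 libraries matched their own number best. With the replicate block, 26 and 34 members were called in BE2C, 27 and 27 in Kelly, 31 and 24 between hairpins, 35 between the controls, and 25 and 29 for the differences between lines. MFAP4, ELN, PRRX1 and CCN2 lost the most calls, 15, 13, 12 and 11 of the 77. Depth limits members near or below 1 CPM, such as PRRX1, CCN2, WWTR1 and CCN1.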
